A study of Mus musculus with 18 samples.

Results

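Expression of 9 claudin and tight junction genes (Cldn1, Cldn3, Cldn4, Cldn5, Cldn6, Cldn7, Cldn18, Ocln and Tjp1) was followed in whole fetal mouse lung across sex, antiandrogen treatment and gestational day (GD). Members were all probe sets annotated with one of these symbols alone, which gave 17 of the 45037 probe sets tested and 9 of the 18193 genes named by them. All 18 arrays carried lung RNA of BALB/c fetuses. Each array held a pool of 3 fetuses of one sex from distinct litters, with 3 pools in each of 6 groups. Dams of the 17 m, 17 f, 18 m and 18 f groups (males and females harvested at GD17 or GD18) were injected with vehicle once a day, under the skin. Injections started at GD10 and ended the day before harvest, so dams of the GD18 groups were injected for longer. Dams of the 17 flut and 18 flut groups (males) received 1 mg of flutamide, which blocks the androgen receptor, on the same schedule. All groups therefore shared the daily handling of the dam, and the fetus was exposed to the drug only through the dam. Values are log2 of the array signal, and a level of one gene cannot be set against the level of another because each probe set has its own brightness.

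Tight junctions seal the space between neighbouring epithelial or endothelial cells. Claudins are the membrane proteins whose mix in a cell sets which ions and how much water can pass, occludin (Ocln) is a further membrane protein of the strand, and the scaffold ZO-1 (Tjp1) ties the strand to actin. In the lung, Cldn3, Cldn4, Cldn7 and Cldn18 are known from airway and alveolar epithelium, Cldn5 mainly from endothelium, and Cldn6 from embryonic epithelia. Near birth the lung epithelium must change from secreting fluid into the airspace to clearing it, a step that depends on a tight epithelium.

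The tissue label was checked on marker genes. The mean log2 signal of 8 lung epithelial genes lay between 10.33 and 10.63 in all 18 pools, and the mean of 7 alveolar type II genes went from between 9.14 and 10.40 at GD17 to between 11.75 and 12.21 at GD18. Of the 18 pools, 5 stood apart. Pools 17 m 3, 17 f 2 and 17 f 3 had a mean of 7 exocrine pancreas genes of 10.25, 10.68 and 10.59, where the other 15 pools had 5.29 to 6.03. Pool 18 m 3 had the highest mean of 7 liver genes, 11.96, and the lowest 5' minus 3' signal of Actb, -0.80 against -0.49 to -0.34 elsewhere. Pool 18 flut 3, labelled as male, had Xist at 11.95 where the other male pools had 7.81 to 8.69, and a Y-linked mean of 7.14, so it goes against its label in part. Results that these pools decide are given below with and without them. In such whole-lung RNA, a change in the number of cells of one type and a change in RNA per cell cannot be told apart.

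Most of the 9 genes differed between the gestational days. Cldn3, Cldn5 and Tjp1 rose from GD17 to GD18 in males, females and flutamide-treated males, and Cldn6 fell in all 3, by the largest amount of the 9. Cldn18 rose in males and females, Ocln rose in females and flutamide-treated males, Cldn7 fell in females and flutamide-treated males, and Cldn4 fell in males. Cldn1 passed the test in no comparison. By limma with Benjamini-Hochberg adjustment over all 45037 probe sets (called at an adjusted p below 0.05), 6 of the 9 genes were called in males (4 higher and 2 lower), where 30.1% of all genes were called (17.7% higher and 12.4% lower). In females 7 were called (5 higher and 2 lower) beside 39.6% of all genes (17.2% higher and 22.5% lower), and in flutamide-treated males 6 (4 higher and 2 lower) beside 26.7% (13% higher and 13.8% lower). The median difference of the 9 genes was 0.21, 0.45 and 0.29 on the log2 scale, beside 0.03, -0.01 and -0.01 over all genes. Over all 18193 genes, 10% rose in all 3 comparisons and 8.64% fell in all 3, which share no pools. Every GD18 pool lay above every GD17 pool, whatever the group, for Cldn5, Cldn18 and Tjp1, and below for Cldn6 and Cldn7.

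**Figure D1:**
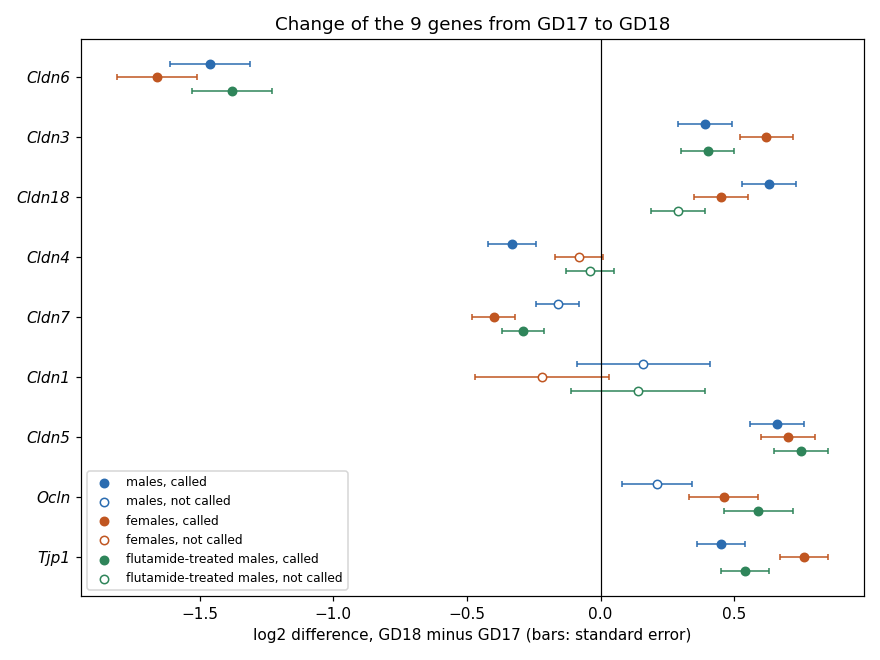
Difference in log2 signal between GD18 and GD17 (horizontal axis, bars are standard errors) for each of the 9 genes in males, females and flutamide-treated males, with filled points where the adjusted p was below 0.05. Cldn6 lies far to the left in all 3, between -1.66 and -1.38, while the points of Cldn3, Cldn5 and Tjp1 lie right of 0 and are filled in all 3.

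Promoter sequence was read for all 9 genes, to set what is written before their start sites beside their course. RefSeq (build GRCm38.p6) gave a window for 9 of the 9 genes, with 12 promoters in all. The 250 bases before each start site are shown 5′ to 3′ for Cldn6, which fell, and for Cldn5 and Cldn18, which rose (Cldn18 was called in males and females only). Cldn3 and Tjp1, called higher in all 3 day comparisons, are not shown, and their promoters held no match. Capitals mark a match to a searched motif on either strand, and Cldn18 has separate start sites, which is why it has a pair of lines.
Cldn6, chr17:23679115-23679364, plus strand: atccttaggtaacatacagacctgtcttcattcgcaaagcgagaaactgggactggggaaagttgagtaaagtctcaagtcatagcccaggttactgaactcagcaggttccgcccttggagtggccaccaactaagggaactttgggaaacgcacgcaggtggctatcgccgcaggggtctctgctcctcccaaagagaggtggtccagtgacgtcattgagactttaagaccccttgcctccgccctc
Cldn5, chr16:18776597-18776846, plus strand: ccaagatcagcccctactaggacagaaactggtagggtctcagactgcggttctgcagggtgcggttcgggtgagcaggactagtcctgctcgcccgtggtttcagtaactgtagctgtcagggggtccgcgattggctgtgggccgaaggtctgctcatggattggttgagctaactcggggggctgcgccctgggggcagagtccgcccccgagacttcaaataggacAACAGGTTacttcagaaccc
Cldn18 upstream start, chr9:99717268-99717517, minus strand: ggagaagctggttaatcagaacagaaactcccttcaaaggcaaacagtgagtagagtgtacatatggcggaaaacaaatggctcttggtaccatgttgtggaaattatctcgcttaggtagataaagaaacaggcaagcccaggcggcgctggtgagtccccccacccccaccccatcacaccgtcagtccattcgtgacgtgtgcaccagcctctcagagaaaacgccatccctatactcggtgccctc
Cldn18 downstream start, chr9:99710064-99710313, minus strand: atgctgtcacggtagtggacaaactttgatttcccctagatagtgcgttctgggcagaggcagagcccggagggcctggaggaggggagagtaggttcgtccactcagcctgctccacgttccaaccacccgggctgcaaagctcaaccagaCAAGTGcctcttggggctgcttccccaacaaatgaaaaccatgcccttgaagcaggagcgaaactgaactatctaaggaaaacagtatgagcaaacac

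The search used AACCNGTT, bound by grainyhead-like factors such as Grhl2, CAAGTG, a core letter string of sites of the lung factor Nkx2-1, and the androgen receptor's AGAACA and TGTTCT with 3 bases between them, on both strands of the 300-base windows. The grainyhead-like letters were in 1 of the 12 promoters, that of Cldn5 (first base at position -20 from the start site), and in 2.09% of all 32851 promoters. The Nkx2-1 letters were in 3 of the 12 (Cldn1 at -207, the downstream start of Cldn7 at -223 and the downstream start of Cldn18 at -98) and in 13.6% of all. None of the 12 held the androgen receptor letters, which were in 3 of all 32851 promoters (0.00913%). A match describes letters only.

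Cldn6, the claudin of embryonic epithelia, had the largest change (probe set 1417845_at). Its log2 signal was 10.20, 10.13 and 10.25 in the 17 m pools and 9.01, 8.94 and 8.27 in the 18 m pools. It was 10.20, 10.07 and 10.15 in 17 f and 8.32, 8.65 and 8.47 in 18 f. It was 9.95, 9.99 and 9.94 in 17 flut and 8.57, 8.80 and 8.36 in 18 flut. The GD17 pools lie within a narrow band and the lowest of them is 0.93 above the highest GD18 pool. The fall was 1.46 (SE 0.15, 2.75-fold, adjusted p = 6.1e-06) in males, 1.66 (SE 0.15, 3.16-fold, adjusted p = 5.2e-07) in females and 1.38 (SE 0.15, 2.61-fold, adjusted p = 1.2e-05) in flutamide-treated males. Pools 17 m 3, 17 f 2 and 17 f 3 had Cldn6 at 10.25, 10.07 and 10.15, beside 10.20 and 10.13 in the other 17 m pools and 10.20 in 17 f 1. The fall remained called under each of the 35 alternatives in each of the 3 comparisons, though some of these, such as looser thresholds, could not lose a call. Its order of group means was 17 m, 17 f, 17 flut, 18 m, 18 flut, 18 f, and among neighbours in that order 17 f and 17 flut, and 17 flut and 18 m, did not overlap.

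**Figure D2:**
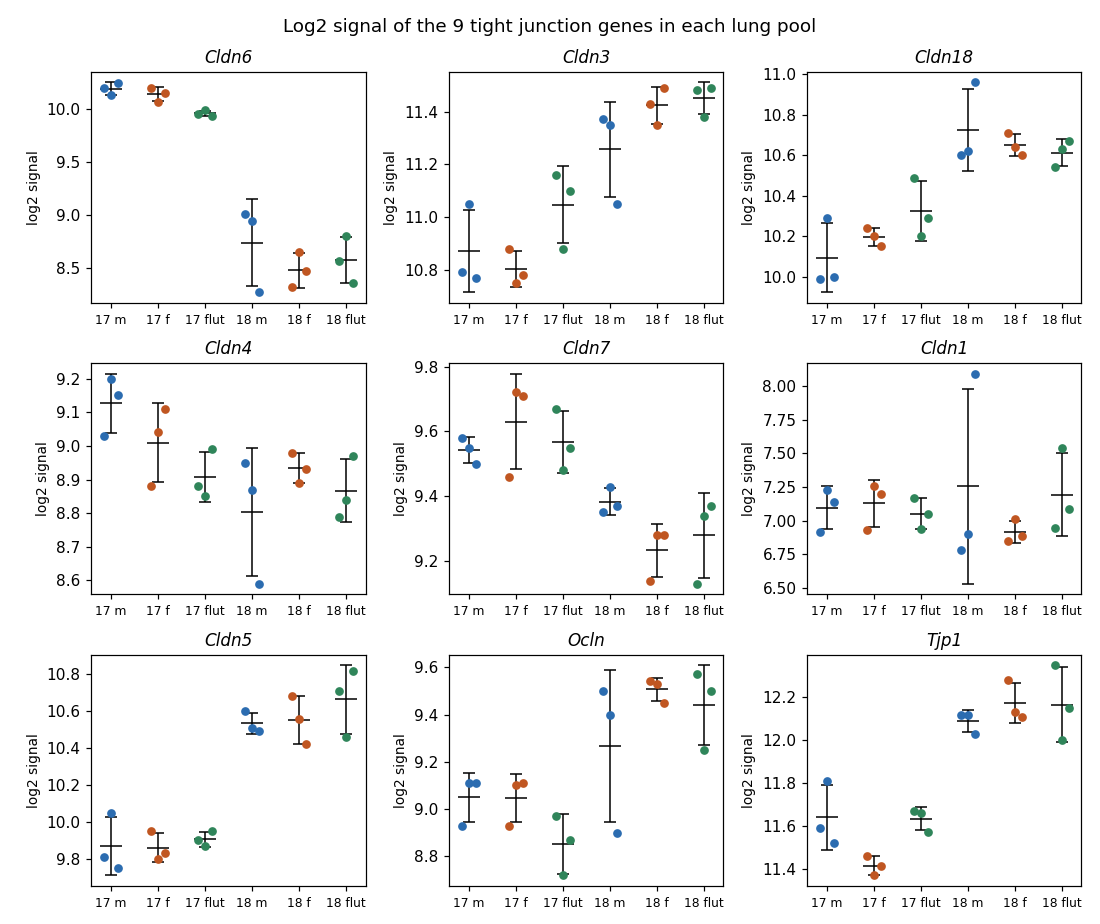
Log2 signal (vertical axis, a separate scale in each panel) of the 9 genes in each pool, by group, with the group mean and SD as black lines. Cldn6 drops from between 9.94 and 10.25 at GD17 to 9.01 or less at GD18, Cldn5 and Tjp1 step up in all 3 kinds of fetus, and the 18 m pools spread most for Cldn1, Ocln and Cldn6, where pool 3 sits alone.

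Cldn3, a sealing claudin of airway and alveolar epithelium, was measured by 4 probe sets. On that of highest mean (1451701_x_at) the 17 m pools had 10.79, 11.05 and 10.77 and the 18 m pools 11.37, 11.35 and 11.05. The females had 10.88, 10.75 and 10.78 at GD17 and 11.43, 11.35 and 11.49 at GD18. The flutamide-treated males had 11.16, 10.88 and 11.10 at GD17 and 11.48, 11.38 and 11.49 at GD18. Within each kind of fetus no GD18 pool lay below a GD17 pool, and pools 17 m 2 and 18 m 3 both read 11.05. The rise was 0.39 (SE 0.10, adjusted p = 0.008) in males, 0.62 (SE 0.10, adjusted p = 1e-04) in females and 0.40 (SE 0.10, adjusted p = 0.0074) in flutamide-treated males. Leaving out the 3 pancreas-high GD17 pools, the male difference was 0.34 (SE 0.12) and no longer called (adjusted p = 0.056). The male call was also lost, at the same difference of 0.39, with the fit held to the groups compared. The probe sets 1434651_a_at and 1460569_x_at were called higher in all 3 comparisons, by 0.35 to 0.68, and 1426332_a_at only in females, with 0.31 (adjusted p = 0.12) in males and 0.37 (adjusted p = 0.074) in flutamide-treated males.

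Cldn18, a claudin of alveolar epithelium with a lung and a stomach form, had 9.99, 10.29 and 10 in 17 m and 10.60, 10.62 and 10.96 in 18 m (1449428_at). It had 10.24, 10.20 and 10.15 in 17 f and 10.71, 10.64 and 10.60 in 18 f. It had 10.49, 10.20 and 10.29 in 17 flut and 10.54, 10.63 and 10.67 in 18 flut. All GD18 pools were above all GD17 pools, by as little as 0.05 between the flutamide-treated pools. The rise was 0.63 (SE 0.10, 1.55-fold, adjusted p = 0.00029) in males and 0.45 (SE 0.10, 1.37-fold, adjusted p = 0.0023) in females. In flutamide-treated males the difference was 0.29 (SE 0.10) with an adjusted p of 0.059. Of the 35 alternatives, 12 called it, among them looser thresholds at which that p made the call certain. The second probe set (1425445_a_at) was called there with 0.56 (SE 0.16, adjusted p = 0.021), and also in males (0.64) and females (0.63). The mean of 9 stomach genes was highest in the pancreas-high pools 17 f 2 and 17 f 3 (6.55 and 6.53, against 6.10 in 17 f 1). Cldn18 read 10.20 and 10.15 in those pools and 10.24 in 17 f 1. The mean of 6 alveolar type I genes went from between 8.48 and 9.07 at GD17 to between 9.93 and 10.30 at GD18. The part of stomach genes or of alveolar cells in the Cldn18 values was not tested. Leaving out the 3 pancreas-high pools left 1 pool in 17 f and a female difference of 0.41 (SE 0.16, adjusted p = 0.081).

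Cldn4 and Cldn7, 2 further epithelial claudins, did not rise in any of the 3 day comparisons. Cldn4 (1418283_at) had 9.03, 9.20 and 9.15 in 17 m and 8.95, 8.87 and 8.59 in 18 m, with no overlap. It had 8.88, 9.04 and 9.11 in 17 f against 8.98, 8.89 and 8.93 in 18 f, and 8.88, 8.85 and 8.99 in 17 flut against 8.79, 8.84 and 8.97 in 18 flut, both overlapping. The fall in males was 0.33 (SE 0.09, adjusted p = 0.014), while the difference was -0.08 (95% interval -0.27 to 0.11) in females and -0.04 (-0.23 to 0.15) in flutamide-treated males. The male call rested on single pools: it was -0.22 (adjusted p = 0.067) without 18 m 3 and -0.29 (adjusted p = 0.056) without 17 m 2. It was also lost, at the same difference, with the fit held to the groups compared. Whether males differed from the others in this was tested by the interactions below, where Cldn4 was not called.

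Cldn7 (1448393_at) had 9.58, 9.55 and 9.50 in 17 m and 9.35, 9.43 and 9.37 in 18 m. It had 9.46, 9.72 and 9.71 in 17 f and 9.14, 9.28 and 9.28 in 18 f. It had 9.67, 9.48 and 9.55 in 17 flut and 9.13, 9.34 and 9.37 in 18 flut. No GD18 pool reached the lowest GD17 pool. Cldn7 fell by 0.40 (SE 0.08, adjusted p = 0.0011) in females and by 0.29 (SE 0.08, adjusted p = 0.02) in flutamide-treated males, and differed by -0.16 (95% interval -0.33 to 0.02, adjusted p = 0.19) in males. Pools 17 f 2 and 17 f 3, high in pancreas and squamous genes (squamous mean 8.93 and 8.94, against 6.28 in 17 f 1), had the highest Cldn7 of all 18. Without them and 17 m 3 the female difference was -0.23 (SE 0.11, adjusted p = 0.18). The flutamide call was lost without 17 flut 1 (-0.23, adjusted p = 0.10) or without 18 flut 1 (-0.21, adjusted p = 0.12). The part of those squamous and pancreas genes in the Cldn7 values was not tested.

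Cldn1, a sealing claudin best known from skin and also made in liver, was not called on any of its 4 probe sets. On 1437932_a_at the GD17 values were 6.92, 7.23 and 7.14 in 17 m, 6.93, 7.26 and 7.20 in 17 f and 7.17, 6.94 and 7.05 in 17 flut. The GD18 values were 6.78, 6.90 and 8.09 in 18 m, 6.85, 7.01 and 6.89 in 18 f and 6.95, 7.54 and 7.09 in 18 flut. All pools but 18 m 3 and 18 flut 2 fell between 6.78 and 7.26. Those are the pools of highest liver mean, 11.96 in 18 m 3 and 10.74 in 18 flut 2, where the other 16 ranged from 6.74 to 10.32. Alb, the serum albumin of hepatocytes, read 14.29 and 13.73 there. On the probe set 1450014_at these pools did not stand out. There 18 m 3 read 5.77 beside 5.79 and 5.51 in 18 m 1 and 18 m 2. Pool 18 flut 2 read 5.85 beside 6.02 and 5.69 in 18 flut 1 and 18 flut 3. The part of liver genes in the Cldn1 signal was not tested. The differences between days were 0.16 (95% interval -0.36 to 0.68) in males, -0.22 (-0.74 to 0.30) in females and 0.14 (-0.38 to 0.66) in flutamide-treated males, the widest intervals of the 9 genes. The male value turned direction without 18 m 3, to -0.26 (SE 0.15, adjusted p = 0.25). The probe sets 1438850_at and 1438851_x_at read between 3.09 and 3.86, a span within that of Y-linked probe sets in female lung (2.91 to 5.15), which limits what could be seen on them.

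**Figure D3:**
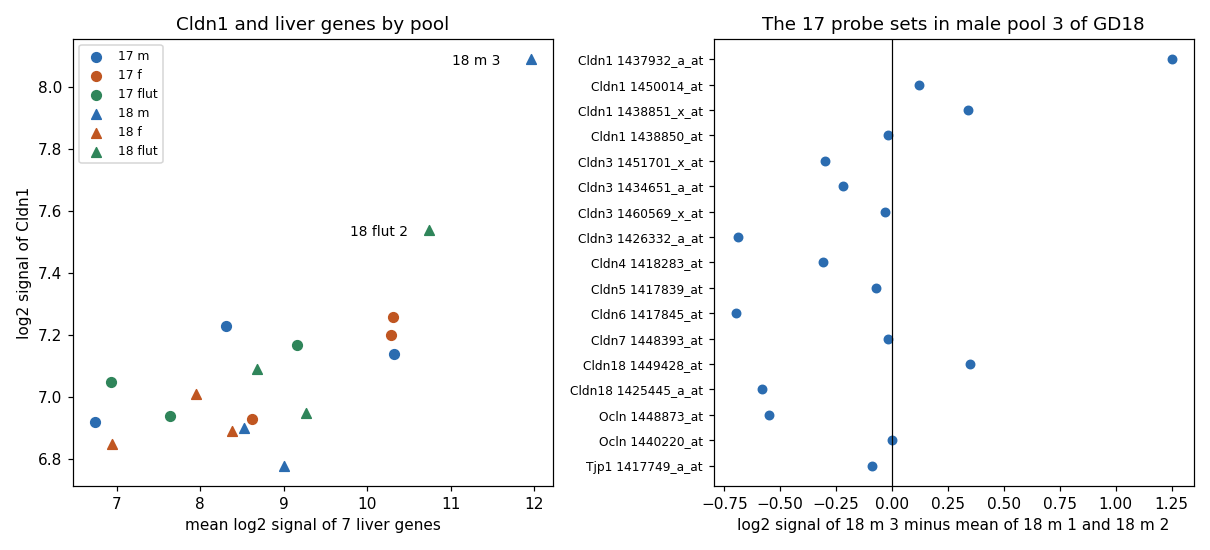
Left, log2 signal of Cldn1 on 1437932_a_at (vertical axis) against the mean log2 signal of 7 liver genes (horizontal axis) in the 18 pools, with the 2 pools of highest liver mean named. Right, log2 signal of pool 18 m 3 minus the mean of 18 m 1 and 18 m 2 for the 17 probe sets, from 1.25 for a Cldn1 probe set down to -0.70 for Cldn6.

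Cldn5, the main claudin of endothelium, rose in all 3 (1417839_at). The males had 9.81, 10.05 and 9.75 at GD17 and 10.60, 10.51 and 10.49 at GD18. The females had 9.95, 9.80 and 9.83 and then 10.68, 10.56 and 10.42, and the flutamide-treated males 9.90, 9.87 and 9.95 and then 10.71, 10.46 and 10.82. The lowest GD18 pool was 0.37 above the highest GD17 pool. The rise was 0.66 (SE 0.10, 1.58-fold, adjusted p = 0.00012) in males, 0.70 (SE 0.10, 1.62-fold, adjusted p = 3e-05) in females and 0.75 (SE 0.10, 1.69-fold, adjusted p = 4.3e-05) in flutamide-treated males. The mean of 8 endothelial genes also went from between 9.25 and 9.53 at GD17 to between 9.69 and 10.06 at GD18, and its part in the Cldn5 rise was not tested. Cldn5 remained called under each of the 35 alternatives in each of the 3 comparisons, some of which, such as looser thresholds, could not lose a call.

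Ocln, whose product occludin spans the membrane beside the claudins, had 8.93, 9.11 and 9.11 in 17 m and 9.50, 9.40 and 8.90 in 18 m (1448873_at). It had 8.93, 9.10 and 9.11 in 17 f and 9.54, 9.53 and 9.45 in 18 f. It had 8.97, 8.72 and 8.87 in 17 flut and 9.57, 9.25 and 9.50 in 18 flut. Of the 9 GD18 pools, 8 lay above every GD17 pool, and 18 m 3 lay within the GD17 span. Ocln rose by 0.46 (SE 0.13, adjusted p = 0.0095) in females and by 0.59 (SE 0.13, adjusted p = 0.0031) in flutamide-treated males. In males the difference was 0.21 (95% interval -0.06 to 0.48, adjusted p = 0.26) with pool 18 m 3 and 0.40 (SE 0.10, adjusted p = 0.0098) without it. The second probe set (1440220_at) gave 0.18 (adjusted p = 0.081) in males and was called in females (0.27) and flutamide-treated males (0.30). With 1 pool left in 17 f, after the pancreas-high pools were left out, the female difference was 0.58 (SE 0.19, adjusted p = 0.051).

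Tjp1, which encodes the scaffold ZO-1, had 11.59, 11.81 and 11.52 in 17 m and 12.12, 12.12 and 12.03 in 18 m (1417749_a_at). It had 11.46, 11.37 and 11.41 in 17 f and 12.28, 12.13 and 12.11 in 18 f. It had 11.67, 11.66 and 11.57 in 17 flut and 12.35, 12 and 12.15 in 18 flut. The groups of the 2 days did not overlap. The rise was 0.45 (SE 0.09, adjusted p = 0.0015) in males, 0.76 (SE 0.09, adjusted p = 5.5e-06) in females and 0.54 (SE 0.09, adjusted p = 0.00036) in flutamide-treated males.

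Pool 18 m 3 read differently on probe sets of one gene. For Cldn18 it was 0.35 above the mean of the other 18 m pools on 1449428_at and 0.58 below it on 1425445_a_at (10.02 against 10.55 and 10.64). For Ocln it was 0.55 below on 1448873_at, while 1440220_at read 8.56 beside 8.57 and 8.56. For Cldn3 the gap ran from -0.03 on 1460569_x_at to -0.69 on 1426332_a_at. The same pool had the low 5' minus 3' signal of Actb given above and one of -0.39 for Gapdh, where the other 17 pools had 0.14 to 0.27, and the part of this in the probe set gaps was not tested.

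Sex was compared in vehicle-injected lungs to ask whether male and female fetuses differ at each day. None of the 9 genes was called at GD17, where 1.67% of all genes were, and none at GD18, where 1.68% of all genes were. At an unadjusted p below 0.05, for which no share of all genes is given here or below, limma gave 1 gene at GD17, Tjp1, and 0 at GD18. Tjp1 was higher in males at GD17 by 0.23 (SE 0.09, 95% interval 0.04 to 0.42, adjusted p = 0.19), with the 17 m pools at 11.52 to 11.81 all above the 17 f pools at 11.37 to 11.46. At GD18 the difference was -0.08 (95% interval -0.27 to 0.11). Over the 9 genes the GD17 differences ran from -0.10 (Cldn18) to 0.23 (Tjp1) and the GD18 differences from -0.24 (Ocln) to 0.34 (Cldn1). Both ends of the GD18 range rested on 18 m 3: without it Ocln differed by -0.06 (SE 0.10) and Cldn1 by -0.08 (SE 0.15). With all pools, the Ocln interval at GD18 was -0.51 to 0.03, and that of Cldn7, whose 18 m pools all lay above the 18 f pools, was -0.02 to 0.33 around 0.15. For Cldn5 the differences were 0.01 (-0.20 to 0.22) at GD17 and -0.02 (-0.23 to 0.18) at GD18.

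Flutamide-treated males were compared with vehicle males to ask whether blocking the androgen receptor went with a change. None of the 9 genes was called at GD17, beside 2.69% of all genes, or at GD18, beside 4.22%. At an unadjusted p below 0.05 there were 2 genes at GD17, Cldn4 and Cldn18, and 0 at GD18. Cldn4 was lower with flutamide at GD17 by 0.22 (difference -0.22, SE 0.09, 95% interval -0.41 to -0.03, adjusted p = 0.19), with all 17 flut pools (8.85 to 8.99) below the 17 m pools (9.03 to 9.20). Cldn18 differed by 0.23 (SE 0.10, 95% interval 0.01 to 0.45, adjusted p = 0.22) and its pools overlapped. At GD18 the same genes differed by 0.07 (-0.12 to 0.26) and -0.11 (-0.33 to 0.11), and without 18 m 3 by -0.04 (SE 0.08) and 0.01 (SE 0.09). Cldn3 was 0.18 (-0.03 to 0.39, adjusted p = 0.32) higher with flutamide at GD17 and 0.19 (-0.02 to 0.40, adjusted p = 0.34) at GD18, neither called, and the GD18 value was 0.09 (SE 0.09) without 18 m 3. The sex and flutamide comparisons of a day share the vehicle male pools, so their values for a gene are not independent.

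**Figure D4:**
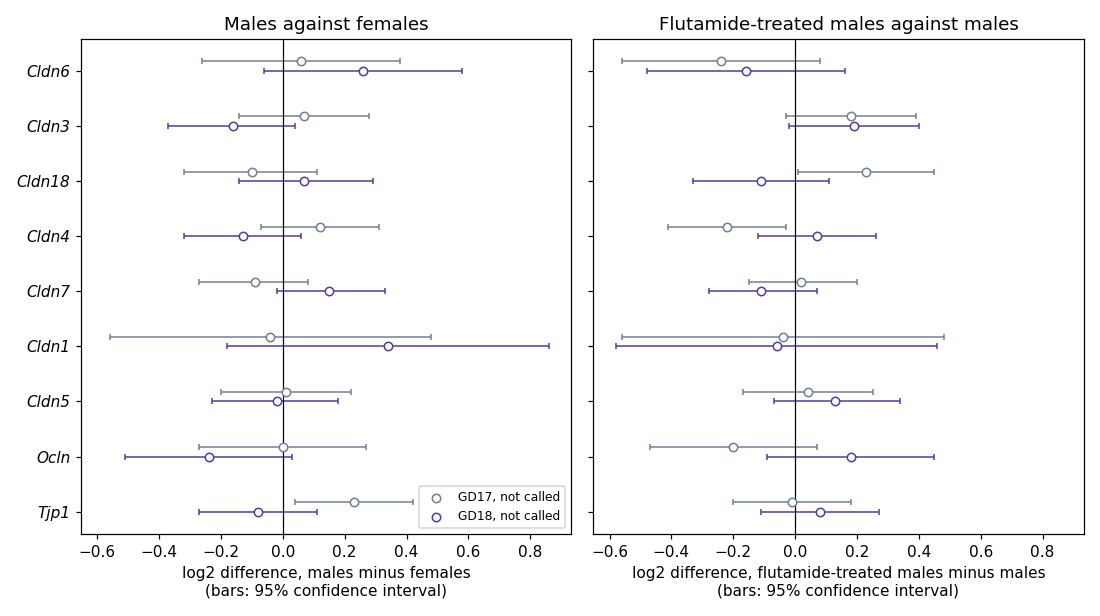
Difference in log2 signal with its 95% confidence interval (horizontal axes) for the 9 genes, males minus females on the left and flutamide-treated minus vehicle males on the right, at GD17 and GD18. All points are open because none passed the test, and the intervals that leave out 0 are those of Tjp1 (sex, GD17) and of Cldn4 and Cldn18 (flutamide, GD17).

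Cldn6 at GD18 depended on 1 pool. With all pools it was 0.26 (SE 0.15, 95% interval -0.06 to 0.58, adjusted p = 0.48) higher in males than in females and 0.16 lower with flutamide (difference -0.16, SE 0.15, adjusted p = 0.63). Pool 18 m 3 read 8.27, below each 18 f pool (8.32 to 8.65), while 18 m 1 and 18 m 2 read 9.01 and 8.94, above all of them. Without 18 m 3, Cldn6 was called higher in males than in females, by 0.49 (SE 0.11, adjusted p = 0.016), and lower with flutamide, by 0.39 (difference -0.39, SE 0.11, adjusted p = 0.04). Without 18 flut 3 as well, the sex difference was 0.49 (adjusted p = 0.0095), and the flutamide difference was -0.28 (SE 0.10, adjusted p = 0.13) and not called. Pool 18 flut 3 is the one with Xist at 11.95. Pool 18 m 3 is the one with the highest liver genes and the low 5' signal, and their part in its Cldn6 value was not tested. Both calls rest on the same 2 male pools.

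The interaction terms asked whether the day change differed with sex or with flutamide. None of the 9 genes was called for sex by day, beside 4.77% of all genes, and none for flutamide by day, beside 0.17%. At an unadjusted p below 0.05, limma gave 1 gene for sex by day (Tjp1, -0.31, 95% interval -0.58 to -0.05, adjusted p = 0.17) and 2 for flutamide by day. These were Cldn18 (-0.34, -0.65 to -0.03, adjusted p = 0.37) and Cldn4 (0.29, 0.02 to 0.55, adjusted p = 0.39), which were -0.22 (SE 0.13) and 0.18 (SE 0.11) without 18 m 3. For Ocln, called in females and flutamide-treated males but not in males, the terms were -0.25 (-0.63 to 0.13) and 0.37 (-0.01 to 0.76), and without 18 m 3 they were -0.07 (SE 0.13) and 0.19 (SE 0.13). For Cldn7, with the same pattern of calls, they were 0.24 (-0.01 to 0.49) and -0.13 (-0.38 to 0.12). For Cldn4, called in males, the sex term was -0.25 (-0.52 to 0.02, adjusted p = 0.29), and -0.14 (SE 0.11) without 18 m 3. A difference between the kinds of fetus in these day changes was therefore not shown. Without 18 m 3 and 18 flut 3, Cldn6 was called for sex by day, at 0.44 (SE 0.12, adjusted p = 0.039), but not without 18 m 3 alone (0.44, SE 0.15, adjusted p = 0.071) or without all 5 pools that stand apart (0.52, SE 0.16, adjusted p = 0.11).

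Other junction genes were followed in lists, 62 genes in all. Of these pathway genes, 29 were called between the days in males (23 higher and 6 lower), 35 in females (26 higher and 9 lower) and 23 in flutamide-treated males (19 higher and 4 lower), beside 30.1%, 39.6% and 26.7% of all genes. Of the 62, 15 (24.2%) rose in all 3 comparisons and 2 (3.23%) fell in all 3, beside 10% and 8.64% of all genes. Of the 14 other claudins, 3 were called in males, 4 in females and 1 in flutamide-treated males, no larger a share than over all genes. Cldn10, a paracellular ion channel claudin, rose by 0.56, 0.77 and 0.67. Cldn8 fell by 0.56 in males and by 0.60 in females, and differed by -0.28 (SE 0.13, adjusted p = 0.16) in flutamide-treated males. Its female GD17 values were 6.47 and 6.33 in the pancreas-high pools 17 f 2 and 17 f 3 and 5.95 in 17 f 1. The 18 f pools read 5.74, 5.57 and 5.62. The part of the pancreas-high pools in the female fall was not tested. Cldn13 fell by 1.83 (SE 0.50, adjusted p = 0.0082) in females, and its highest values were 8.01 and 8.08 in 17 f 2 and 17 f 3, 7.75 in 18 m 3 and 7.62 in 17 m 3, the pools that also stood apart in pancreas or liver genes. The other 14 pools had 5.64 to 6.78, the highest of them in 17 f 1. The mean of 6 erythroid genes was 9.28 and 9.29 in 17 f 2 and 17 f 3 and 9.01 in 17 f 1. It was 8.95 in 17 m 3, 8.33 in 18 m 3 and 7.71 to 8.44 elsewhere. Of those 6 genes, 5 were called lower between the days in females, beside 22.5% of all genes. The part of those tissues and of erythroid cells in the Cldn13 values was not tested.

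The scaffolds under the membrane that were called between the days all rose. Of 10 junctional scaffolds, 6 rose in males, 9 in females and 5 in flutamide-treated males, where 17.7%, 17.2% and 13% of all genes rose, and none fell. Their median differences were 0.31, 0.42 and 0.18. Magi3 rose by 0.60, 0.79 and 0.45 and Patj, a scaffold of the Crumbs polarity complex, by 0.49, 0.58 and 0.45. Of 6 junctional adhesion molecules, 4, 3 and 4 rose. F11r, the epithelial and endothelial JAM-A, rose by 0.59, 0.58 and 0.50, Jam2 by 0.51, 0.51 and 0.55, and Esam, of endothelium, by 0.32, 0.44 and 0.38. Jam3 fell by 0.43 (SE 0.13, adjusted p = 0.02) in females and by 0.38 (SE 0.13, adjusted p = 0.046) in males, where it was named after its value was seen. Pool 18 m 3 read 7.21, where 18 m 1 and 18 m 2 read 7.83 and 7.77 and the 17 m pools 8.02, 7.94 and 8.01. The male fall thus rests in large part on that pool.

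The polarity complex places the junction at the apical side. Of its 8 genes, 5, 5 and 3 rose and 1, 2 and 1 fell. Over all genes 17.7%, 17.2% and 13% rose and 12.4%, 22.5% and 13.8% fell, so the falls were near the share of all genes. Pard6b, a PAR6 adaptor, had the largest rise of the lists, by 1.18 (SE 0.13), 1.45 (SE 0.13) and 1.25 (SE 0.13). Its paralog Pard6g fell by 0.41, 0.58 and 0.32. In Pard6b the GD17 pools read 7.86 to 8.33 and the GD18 pools 9.09 to 9.78, with no overlap. Of 7 adherens junction genes, 4 rose and 1 fell in each comparison, beside the same shares of all genes. Cdh1, the epithelial cadherin, rose by 0.43, 0.70 and 0.43, and Cdh5, the endothelial one, by 0.58, 0.67 and 0.43. Epcam, an epithelial adhesion protein known to bind claudin-7, fell by 0.36, 0.56 and 0.47.

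Of 12 transcription factors of junction genes, 2, 4 and 2 rose and 1, 1 and 1 fell. Over all genes 17.7%, 17.2% and 13% rose and 12.4%, 22.5% and 13.8% fell. The rises in males and flutamide-treated males were near those shares, and the falls were no larger a share. Elf3, an epithelial ETS factor, rose by 0.44, 0.65 and 0.61, and Grhl2 by 0.28 in males and 0.37 in females. Snai2, a repressor of epithelial junction genes, fell by 0.51 in females and by 0.52 in flutamide-treated males, and the repressor Snai1 fell by 0.39 in males. The Snai1 pools overlapped, at 8.53, 8.43 and 8.07 in 17 m and 8.15, 8.01 and 7.70 in 18 m, with 18 m 3 lowest. Zeb1, a repressor of the same kind, rose by 0.36 (adjusted p = 0.00051) in females and by 0.41 (adjusted p = 0.00039) in flutamide-treated males. In the sex comparisons none of the 62 genes was called, where 1.67% of all genes were at GD17 and 1.68% at GD18. At an unadjusted p below 0.05 there were 8 of the 62 at GD17 and 9 at GD18. The share of all genes at that unadjusted threshold is not given here. Flutamide gave 15 of the 62 at GD17 at that unadjusted threshold, again without the share of all genes. At an adjusted p below 0.05 it gave 0 calls at GD17, beside 2.69% of all genes. At GD18 it gave 3 of the 62, a share near the 4.22% of all genes. All 3 were lower: Zeb2 by 0.52 (SE 0.12, adjusted p = 0.019), Snai2 by 0.36 (SE 0.09, adjusted p = 0.039) and Mpp5, the scaffold Pals1, by 0.39 (SE 0.10, adjusted p = 0.039). With the fit held to the groups compared, none of these 3 was called. The number of these pathway genes called was 0 without 18 m 2 or without 18 flut 2, 1 without any one of 17 f 3, the 17 flut pools, 18 m 1, 18 f 2 or 18 flut 3, and 6 without 18 m 3. The share of all genes called without each pool is not given here.

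**Figure D5:**
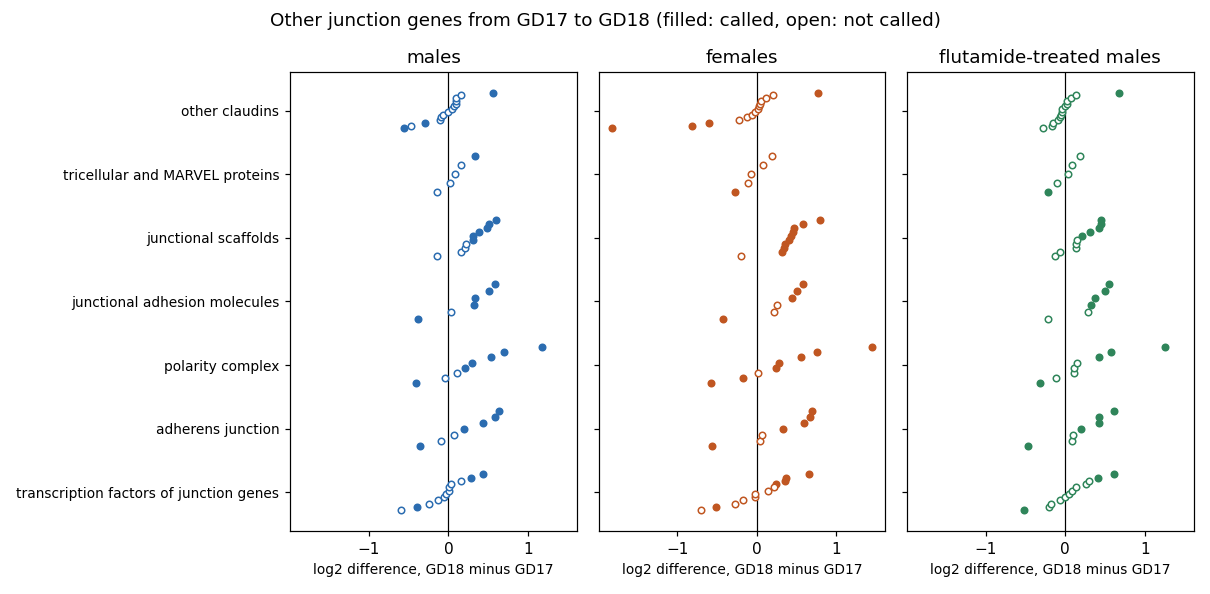
Difference in log2 signal between GD18 and GD17 (horizontal axis) for the 62 other junction genes by list (rows) in males, females and flutamide-treated males, filled where called. Scaffolds lie almost wholly to the right of 0, other claudins cluster around it with Cldn10 to the right, and the point farthest right is Pard6b, at 1.18, 1.45 and 1.25.

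The genes whose log2 signal followed each member most closely over the 18 pools were found by Pearson r. It is a description in which the difference between days, shared by a large part of the array, enters every r. For Cldn6 they were H2ax (0.994), Tubb5 (0.994) and Aurkb (0.992). For Tjp1 they were Sptbn1 (0.989), Wdfy3 (0.981) and Ahr (0.980), and for Cldn5 Sdc1, Igfbp6 and Aqp1 (each 0.984). For Cldn3 they were Fgfr2 (0.972), Fhl1 (0.969) and Ctsc (0.969), and for Cldn18 Ppp1r3b (0.966), Map1lc3a (0.963) and Cds1 (0.962). For Ocln they were Stx12 (0.954), Dkk3 (0.950) and Btg2 (0.950), and for Cldn7 Fh1 (0.948), Samm50 (0.945) and Mrps26 (0.944). Cldn1 was followed by Abca8b (0.927), C8b (0.915), a complement gene made in liver, and Rdh7 (0.914). Cldn4 had the lowest first r of the 9, with Osr1 (0.854), Med24 (0.848) and Id4 (0.845).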

How the data were processed

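RNA of 18 lung pools was hybridized to MOE430 2.0 arrays. The authors deposited RMA intensity values on a linear scale, background-corrected and quantile-normalized over the arrays, and per the labels used limma; the version is not given in the sources used here. The log2 of each deposited intensity was taken, and each array's median then lay between 6.34 and 6.40. Of 45101 probe sets, 64 control ones were left out. Symbols came from the platform annotation of 2016, which gave 1 symbol to 34945 probe sets, several to 932 and none to 9160. A gene's value is its probe set of highest mean over the 18 arrays. limma 3.58.1 in R 4.3.3 fitted 1 mean per group over all 18 arrays (12 residual degrees of freedom) with 9 contrasts, and p-values were adjusted by Benjamini-Hochberg within each contrast over 45037 probe sets. The steps were tested on simulated data. Members and gene lists were chosen with earlier results of these data known. All probe sets of each member were named, at most 4 called genes per list and comparison, and the 3 genes of highest r with each member. The 3 pools per group limit the precision, and each came from other fetuses. Alternatives were other normalizations, filters, variance priors, thresholds, probe set rules, a replicate block, and pools left out. Leaving out all 5 pools that stand apart was added after seeing the data. Marker lists of mesenchyme, airway, alveolar type I, intestine and erythroid cells gave pool means of 10.74 to 11.26, 8.65 to 10.77, 8.48 to 10.30, 4.68 to 5.71 and 7.71 to 9.29. Protein sequences were not used here.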

Additional observations from a re-analysis of the deposited data

How the results depend on the processing

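No called difference of a member changed sign under any of the 35 alternatives. Some cannot change a difference: other thresholds, variance priors, the fit held to the groups compared, and leaving out a pool of another group. Looser thresholds also cannot lose a call. Of the member genes, 1 was called in 18 m minus 18 f with array weights, without pools 18 m 3 and 18 flut 3, and without all 5 pools that stand apart, and 1 in 18 flut minus 18 m with array weights. It was Cldn6 each time, at 0.44 and -0.39 with array weights. For sex by day, 1 member gene was called without 18 m 3 and 18 flut 3. Without the 3 pancreas-high GD17 pools, 4 member genes were called in 18 f minus 17 f, where 1 female pool of GD17 is left, assumed to vary like the other groups. An unadjusted p below 0.05 gave 1 member gene in 17 m minus 17 f, 2 in 17 flut minus 17 m, 1 for sex by day and 2 for flutamide by day. Leaving out 1 pool at a time, called member genes ranged from 7 to 7 in 18 f minus 17 f, 5 to 6 in 18 m minus 17 m, 5 to 7 in 18 flut minus 17 flut, and 0 to 1 in each GD18 comparison of sex and flutamide, and stayed at 0 in the others. Over the single members, calls were lost in 9 of the values under the other alternatives and in 4 of those without 1 pool, and gained in 23 and 6. Replicate numbers did not pair the pools: deviations of same-numbered pools correlated between -0.315 and 0.373, and 12 of 45 pairs were above 0.1. With the number as a replicate block, the called member genes were 6, 7 and 6 in the day comparisons of males, females and flutamide-treated males, the same genes, and 0 elsewhere, and no count of pathway genes moved by over 1.5 times. Cldn18 in flutamide-treated males was called in 12 of the 35 alternatives, among them looser thresholds at which the call was certain. Of the pathway genes, called in 17 m minus 17 f were 2 with array weights, 2 with the mean of all probe sets, 4 with any probe set, 1 at an adjusted p below 0.1, 8 unadjusted and 1 without all 5 pools. In 18 m minus 18 f they were 7 with array weights, 1 with any probe set, 9 unadjusted, and 3 without the GD18 pools or all 5. In 17 flut minus 17 m they were 3 after quantile normalization, 2 above the median level, 2 with a trended robust prior, 4 with array weights, 2 with the mean of probe sets, 5 with any, 4 at an adjusted p below 0.1, 15 unadjusted, 1 with an indicator of the 3 GD17 pools, 2 without the GD18 pools and 1 without all 5. In 18 flut minus 18 m they were 1 after quantile normalization, 8 with array weights, 0 with the fit held to the groups compared and 11 unadjusted, and in 18 m minus 17 m they were 13 with the fit held to the groups compared. For sex by day they were 1 after centring, 1 after quantile normalization, 1 above the median level, 5 with array weights, 3 with the mean of probe sets, 5 with any, 1 at an adjusted p below 0.1, 7 unadjusted and 3 without the GD18 pools, and for flutamide by day 1 with any probe set and 7 unadjusted. Without 1 pool, pathway genes ranged from 0 to 4 in each GD17 comparison, 0 to 3 in 18 m minus 18 f, 0 to 6 in 18 flut minus 18 m, 21 to 30, 29 to 36 and 19 to 24 between days in males, females and flutamide-treated males, and 0 to 3 for sex by day. The share of all genes called under each of these settings is not given here, so no count in this section can be read as particular to junction genes. The cause of these moves was not tested.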

Other observations

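Cldn3 and Cldn4 are next to each other in the mouse genome, with 0 coding genes between them in the RefSeq annotation, and from GD17 to GD18 Cldn3 rose by 0.39 in males, 0.62 in females and 0.40 in flutamide-treated males. Cldn4 fell by 0.33 in males, a call lost without 18 m 3 or without 17 m 2, and differed by -0.08 in females and -0.04 in flutamide-treated males, neither called. Cldn6 is likewise next to Cldn9, with 0 coding genes between them. Cldn6 fell by 1.46 in males, 1.66 in females and 1.38 in flutamide-treated males, and the differences of Cldn9 were -0.09 (SE 0.09), 0.03 (SE 0.09) and 0.02 (SE 0.09), none of them called. The log2 signal of Cldn9 was 5.11 to 5.51 over the 18 pools, close to the highest value of Y-linked probe sets in female lung, 5.15, so a low signal limits what could be seen there. Cldn1 and Cldn16 are a further pair of this kind, and neither was called between days.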
